A study of Mus musculus with 6 samples.

Results

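The dystrophin family and its nearest cytoplasmic partners were examined in skeletal muscle with and without exon 51 of Dmd. The group holds 9 of the 54232 genes counted, chosen by symbol: Dmd, Utrn and Drp2 of the dystrophin family, the dystrobrevin genes Dtna and Dtnb, the syntrophin genes Sntb1, Sntb2 and Sntg2, and the nitric oxide synthase gene Nos1. Messenger RNA of the tibialis anterior, a shin muscle made mostly of fast fibres, was sequenced with strand-marked libraries. There were 3 libraries from ∆Ex51 mice, which lack exon 51 of Dmd (numbered 4, 5 and 6), and 3 from wild-type (WT) mice (numbered 1, 2 and 3). All mice were C57BL6 and 1 month old, and the labels call the libraries of a genotype biological replicates. The labels do not state how the exon was removed, where the deletion ends or how many founder lines were used.

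Dystrophin binds actin filaments under the membrane of the muscle fibre and, through dystroglycan and the sarcoglycans, holds on to the basement membrane outside it. Near its C-terminal end it carries syntrophins and dystrobrevins, which are adaptor proteins. A syntrophin PDZ domain, together with the dystrophin rod, holds neuronal nitric oxide synthase at the membrane. Loss of dystrophin causes Duchenne muscular dystrophy, in which fibres break down and regenerate. Utrophin, the closest relative of dystrophin, sits mainly at the neuromuscular and myotendinous junctions of mature muscle and can bind many of the same partners.

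The sequence removed in these mice is exon 51 of Dmd, found at chrX:84474134-84474366 (GRCm38, forward strand), which codes for part of the rod domain. It is shown because every other result is read against its loss. In the 79-exon transcript model Dmd-203 (GENCODE M21) it has 233 bases, a length that leaves a remainder of 2 when divided by 3. The sequences below run 5′ to 3′ and come from that model. The second is the join of exon 50 (last 30 bases) to exon 51 in the intact model. The third is the join of exon 50 to exon 52 that remains when exon 51 is left out of the model, and capitals mark the first stop codon in the reading frame of Dmd.
Exon 51: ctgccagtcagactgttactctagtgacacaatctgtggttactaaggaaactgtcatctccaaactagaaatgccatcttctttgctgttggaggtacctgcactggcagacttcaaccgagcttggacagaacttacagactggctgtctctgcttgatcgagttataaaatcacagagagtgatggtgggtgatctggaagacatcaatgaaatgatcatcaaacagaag
Exons 50 and 51: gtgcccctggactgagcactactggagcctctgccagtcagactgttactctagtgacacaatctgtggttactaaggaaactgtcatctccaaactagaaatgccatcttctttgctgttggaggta
Exons 50 and 52: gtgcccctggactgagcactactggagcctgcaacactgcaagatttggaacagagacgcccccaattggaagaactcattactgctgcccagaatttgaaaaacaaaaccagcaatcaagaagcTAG
With exon 51 left out, the reading frame of the model met this stop after 95 bases of exon 52, at codon 2462 of a reading frame that has 3678 codons in the intact model. This is a reading of the annotated model and not of RNA from these mice. Counts are summed over whole genes, so neither the join nor exon 51 can be seen in them.

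The transcript of Dmd was the most changed of the group. Levels are given as CPM, the count of a gene relative to the total count of its library after edgeR's TMM factors (trimmed mean of M values) were applied to the totals. For Dmd they were 47.7, 46.4 and 51.1 in ∆Ex51 libraries 4, 5 and 6, against 235, 249 and 266 in WT libraries 1, 2 and 3. The groups lay far apart and each was tight. The means were 48.4 ± 2.46 CPM in ∆Ex51 muscle and 250 ± 15.3 CPM in WT muscle (SD, n = 3 each). On the log2 scale the fold change, ∆Ex51 over WT, was -2.37 (standard error 0.0944, 95% interval -2.59 to -2.15, edgeR quasi-likelihood test, adjusted p = 2.77e-05). With TMM scaling ∆Ex51 muscle held 19.3% of the WT mean. Between 985 and 1116 counts of Dmd remained in each ∆Ex51 library. The gene has 14 annotated transcripts, of which 1 holds exon 51, 8 start after it and 5 end before it. Of the transcripts that start after it, 2 are protein-coding (Dmd-201 and Dmd-202), both starting at 85048413, and they share 16 and 15 whole exons with Dmd-203. The remaining counts could therefore belong to the full-length transcript or to the short ones, and the gene-level table cannot tell these apart.

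Of the 9 genes, 8 had enough counts to be tested and Sntg2 did not. At an adjusted p under 0.05, 1 gene was higher in ∆Ex51 muscle (Sntb1) and 3 were lower (Dmd, Utrn and Nos1). Over all 14335 genes tested, 28.0% were called, 16.1% higher and 11.9% lower. In 6 of the 8 tested genes the libraries of the groups did not overlap, 3 with ∆Ex51 above (Drp2, Sntb1 and Sntb2) and 3 with ∆Ex51 below. The same held for 45.5% of all genes tested, 23.8% with ∆Ex51 above and 21.7% with ∆Ex51 below.

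**Figure D1:**
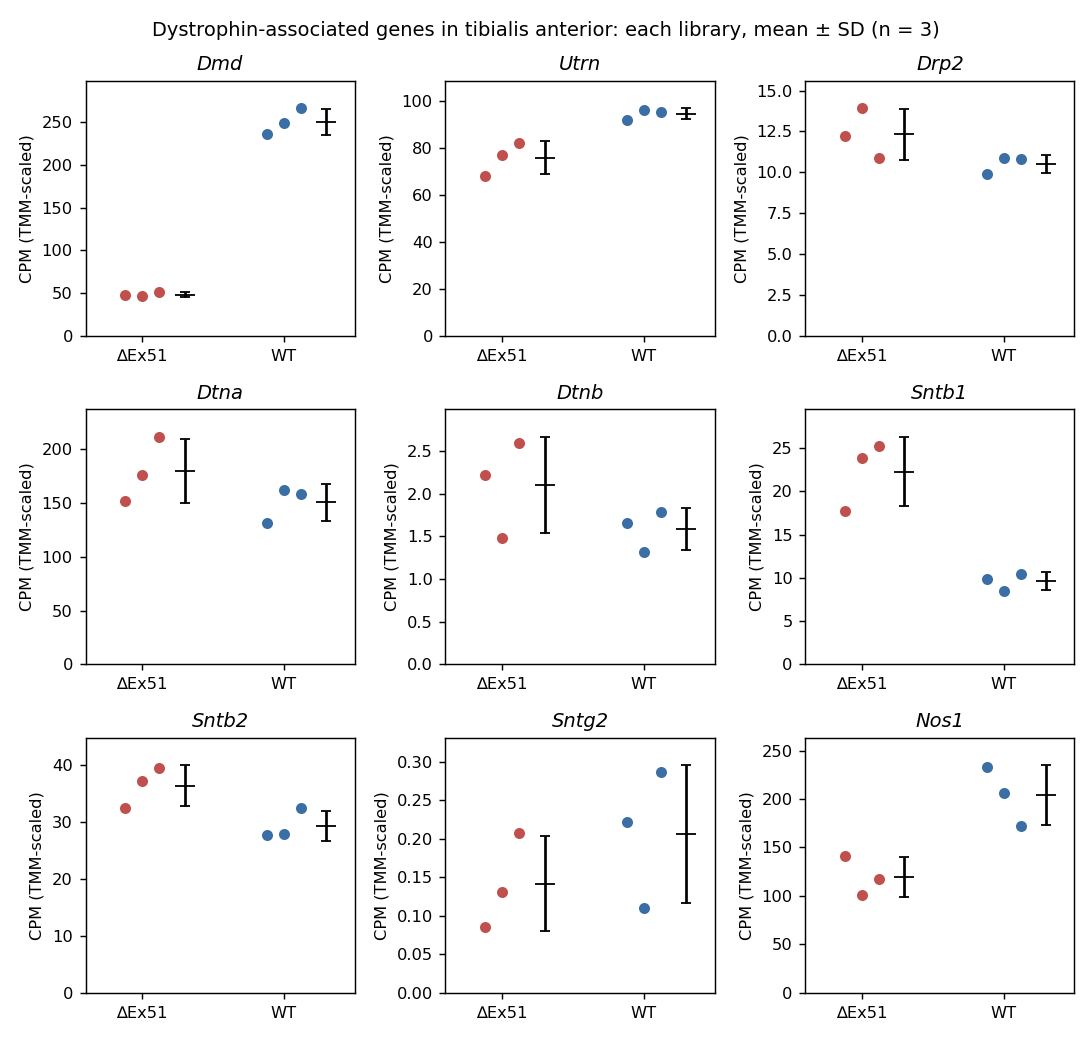
TMM-scaled CPM of the 9 genes in each library (points), with the mean ± SD of 3 libraries beside them, ∆Ex51 on the left and WT on the right of each panel. Dmd fell to 48.4 CPM in ∆Ex51 muscle, against 250 CPM in WT muscle, Sntb1 rose, and the groups overlapped for Dtna, Dtnb and Sntg2.

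These directions are relative to the bulk of genes, because the libraries of the groups were scaled differently. TMM factors were 1.04 to 1.19 in ∆Ex51 libraries and 0.869 to 0.898 in WT libraries, on totals of 18571038 to 20105817 and 15681945 to 21020353 counts. With library size as the only scaling, the median change over all genes lay 0.35 higher on the log2 scale. Under that scaling 5 of the 8 genes were called, Dmd lower and Drp2, Dtna, Sntb1 and Sntb2 higher, where 40.0% of all genes were called, 37.6% higher and 2.33% lower. The calls of Dmd and Sntb1 held under both scalings, and those of Utrn and Nos1 did not. The size of the change still moved: under library size alone Dmd was at -2.02 and Sntb1 at 1.56 on the log2 scale.

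**Figure D2:**
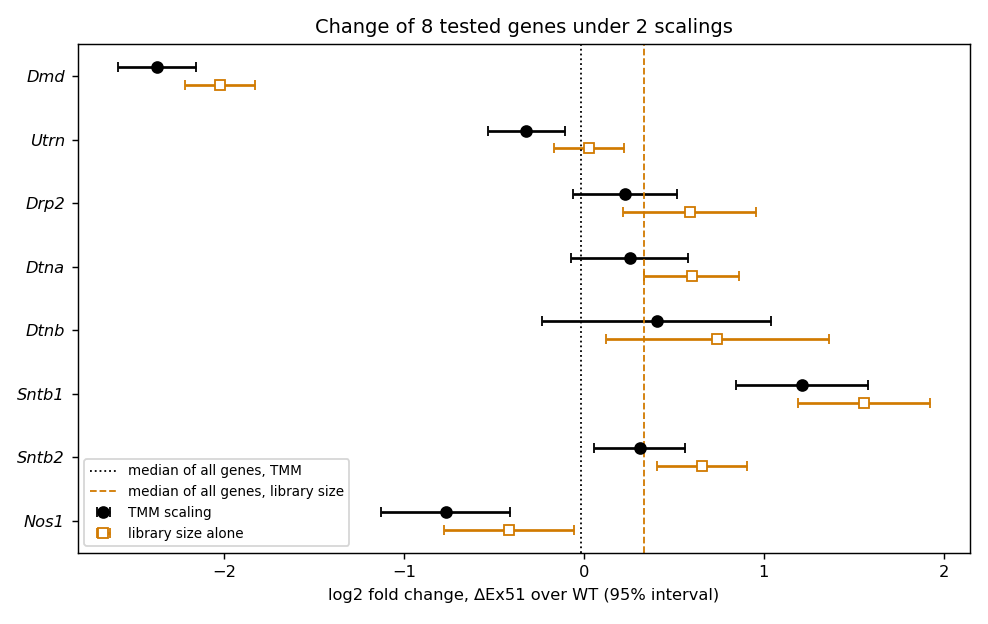
Log2 fold change of the 8 tested genes, ∆Ex51 over WT, with 95% intervals, under TMM scaling (black circles) and under library size alone (open squares). Vertical lines mark the median of all genes tested under each scaling, -0.01 and 0.34. Utrn lies at -0.32 under TMM and at 0.03 under library size, and Dmd and Sntb1 stay far from both lines.

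Utrn encodes utrophin and lies on the reverse strand of chromosome 10 at 12382188 to 12869365. Its level was 68.3, 77.0 and 82.1 CPM in ∆Ex51 libraries 4, 5 and 6, against 91.9, 96.3 and 95.5 CPM in WT libraries 1, 2 and 3. All ∆Ex51 libraries lay below all WT libraries, by a small margin. Utrn had a log2 fold change of -0.32 (standard error 0.0933, 95% interval -0.53 to -0.10, edgeR adjusted p = 0.0367). Without TMM, per plain library total, the levels were 79.4, 91.4 and 85.2 CPM in ∆Ex51 and 82.5, 83.6 and 85.1 CPM in WT. Those values overlapped, and the log2 fold change was 0.03 (95% interval -0.17 to 0.22, edgeR adjusted p = 0.813). The call also ended without ∆Ex51 library 4 (-0.25, adjusted p = 0.114) or 5 (-0.32, 0.0970), without WT library 1 (-0.35, 0.0607), 2 (-0.31, 0.121) or 3 (-0.32, 0.0911), and with no filter on low counts (-0.30, 0.0702). Relative to 7 muscle fibre markers, among them Acta1, Ckm and Myh4, Utrn had 0.929, 1.09 and 0.842 counts per 1000 marker counts in ∆Ex51 libraries, against 0.831, 0.868 and 0.845 in WT libraries, which overlapped. The markers themselves summed to 70527 to 97597 CPM in ∆Ex51 libraries and 110661 to 113070 CPM in WT libraries. The measure therefore raises every gene in ∆Ex51 muscle relative to CPM. On it Drp2, Dtna, Dtnb, Sntb1 and Sntb2 had all ∆Ex51 libraries above all WT libraries. The share of all genes that did so on this measure was not computed, so these separations cannot be called unusual. Among the alternatives run, none called Utrn higher.

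Markers of cell types and structures where utrophin is also found were measured beside it. Of 6 endothelial markers, 0 were called higher and 4 lower, where 16.1% of all genes were called higher and 11.9% lower. Under library size alone 0 of the 6 were called in either direction. Their summed level was 315 to 394 CPM in ∆Ex51 libraries against 450 to 533 CPM in WT libraries. Of 5 neuromuscular junction genes, 1 was called higher and 0 lower, with a median log2 fold change of 0.30. Under library size alone 4 were called higher and 0 lower, where 37.6% and 2.33% of all genes were. The 5 genes summed to 132 to 137 CPM in ∆Ex51 libraries and 60.1 to 70.3 CPM in WT libraries. That sum follows the most abundant of them, and most were not called under TMM. The part of these cells in the level of Utrn was not tested. In a piece of whole muscle, fewer cells of a type and less RNA per cell cannot be told apart.

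Drp2 encodes dystrophin-related protein 2, a short relative of dystrophin known from myelinating Schwann cells, where it binds periaxin. It lies on chromosome X at 134404551 to 134456573 on the forward strand. Its level was 12.2, 13.9 and 10.9 CPM in ∆Ex51 libraries 4, 5 and 6, against 9.90, 10.8 and 10.8 CPM in WT libraries 1, 2 and 3. The highest WT library lay just under the lowest ∆Ex51 library. Its log2 fold change was 0.23 (standard error 0.127, 95% interval -0.06 to 0.52, edgeR adjusted p = 0.211) and was not called. Under library size alone it was 0.59 and called (edgeR adjusted p = 0.0219). Of 8 markers of myelinating Schwann cells, 0 were called higher and 4 lower, where 16.1% of all genes were called higher and 11.9% lower. Under library size alone 2 were called higher and 3 lower, where 37.6% and 2.33% of all genes were. The 8 markers summed to 74.1 to 80.2 CPM in ∆Ex51 libraries against 102 to 116 CPM in WT libraries. Prx, a member of that list which encodes periaxin, was at 4.52 ± 0.0414 CPM in ∆Ex51 muscle and 9.26 ± 0.950 CPM in WT muscle. It was picked from the list, outside the rule for named genes. The part of these cells in the level of Drp2 was not tested.

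The balance between Utrn and Dmd was turned round in ∆Ex51 muscle. Ratios within a library do not depend on the scaling between libraries. Per exon length, the ratio of Utrn to Dmd was 1.99, 2.31 and 2.23 in ∆Ex51 libraries 4, 5 and 6, against 0.543, 0.537 and 0.50 in WT libraries 1, 2 and 3. Utrn was thus above Dmd in every ∆Ex51 library and below it in every WT library. The difference of the mean log2 ratio, ∆Ex51 minus WT, was 2.05 (exact permutation test, two-sided, p = 0.1, the smallest p that 3 against 3 libraries can give, and 0.133 adjusted over 4 ratios). Of the summed RPKM of Dmd, Utrn and Drp2, Dmd made up 25.8% ± 1.49 in ∆Ex51 muscle and 60.8% ± 0.9999 in WT muscle. Utrn made up 56.0% ± 2.33 in ∆Ex51 muscle and 32.0% ± 0.920 in WT muscle, and Drp2 18.3% ± 2.49 in ∆Ex51 muscle and 7.12% ± 0.155 in WT muscle (SD, n = 3 each). The summed level of the family was 7.91 ± 0.425 RPKM in ∆Ex51 muscle and 17.3 ± 0.805 RPKM in WT muscle.

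**Figure D3:**
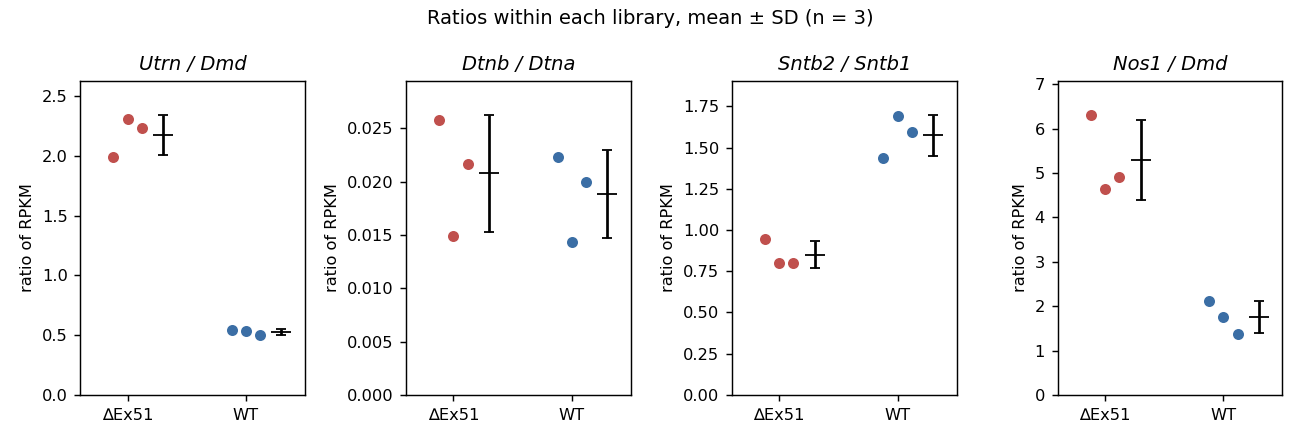
Ratios of RPKM between pairs of genes within each library (points), with the mean ± SD of 3 libraries, ∆Ex51 left of WT. The ratio of Utrn to Dmd was 1.99 to 2.31 in ∆Ex51 libraries and 0.50 to 0.543 in WT libraries, while the ratio of Dtnb to Dtna overlapped between groups.

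Dtna encodes alpha-dystrobrevin, the main dystrobrevin of muscle fibres, which binds dystrophin and carries syntrophins of its own. Its level was 152, 176 and 212 CPM in ∆Ex51 libraries 4, 5 and 6, against 131, 162 and 158 CPM in WT libraries 1, 2 and 3. The groups overlapped, with ∆Ex51 library 6 highest and WT library 1 lowest. The fitted difference was 0.26 on the log2 scale (standard error 0.141, 95% interval -0.07 to 0.58, edgeR adjusted p = 0.211), and it was not called. Per plain library total the levels did not overlap, at 177 to 219 CPM in ∆Ex51 and 118 to 141 CPM in WT, and the gene was called higher (0.60, edgeR adjusted p = 0.00555).

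Dtnb, the beta-dystrobrevin gene known mostly from tissues other than muscle, was near the low end of the measured range. It had 52, 34 and 50 counts in ∆Ex51 libraries 4, 5 and 6 and 30, 24 and 25 counts in WT libraries 1, 2 and 3. Its log2 fold change was 0.40 with a wide interval (-0.23 to 1.04, edgeR adjusted p = 0.307), so the error spans both directions. Dtna made up 98.0% ± 0.529 of the summed dystrobrevin RPKM in ∆Ex51 muscle and 98.2% ± 0.396 in WT muscle. The ratio of Dtnb to Dtna was 0.0208 ± 0.00550 in ∆Ex51 muscle and 0.0188 ± 0.00410 in WT muscle (exact permutation test, two-sided, p = 0.6, n = 3 each). The sign of that difference turned without ∆Ex51 library 4 or without WT library 2.

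Sntb1 encodes beta-1-syntrophin, an adaptor that binds dystrophin and its relatives, and was the one gene of the group called higher. It lies on the reverse strand of chromosome 15 at 55636388 to 55906949. Its level was 17.7, 23.8 and 25.3 CPM in ∆Ex51 libraries 4, 5 and 6, against 9.90, 8.49 and 10.5 CPM in WT libraries 1, 2 and 3. Every ∆Ex51 library was well above every WT library. Sntb1 had a log2 fold change of 1.21 (standard error 0.159, 95% interval 0.85 to 1.58, edgeR adjusted p = 0.00200), a 2.32-fold rise, and it stayed between 1.11 and 1.35 when any single library was left out. In these samples macrophage markers (6 of 6 called higher) summed to 470, 661 and 346 CPM in ∆Ex51 libraries 4, 5 and 6 and to 22.4 to 48.9 CPM in WT libraries. Markers of regenerating fibres (4 of 4 called higher) summed to 209, 183 and 276 CPM in the same ∆Ex51 libraries and to 12.5 to 16.1 CPM in WT libraries. Those of fibro-adipogenic progenitors (4 of 4 called higher) summed to 227 to 233 CPM in ∆Ex51 libraries and 108 to 135 CPM in WT libraries. Over all genes tested 16.1% were called higher. Under library size alone 37.6% were, and all markers of these 3 lists were still called higher. The part of these cells in the level of Sntb1 was not tested.

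Sntb2, which encodes beta-2-syntrophin, lies on the forward strand of chromosome 8 at 106935750 to 107019714. It was at 32.5, 37.1 and 39.5 CPM in ∆Ex51 libraries 4, 5 and 6, against 27.7, 27.9 and 32.4 CPM in WT libraries 1, 2 and 3. The lowest ∆Ex51 library lay just above the highest WT library. The log2 fold change was 0.31 (standard error 0.109, 95% interval 0.06 to 0.56) and missed the threshold (edgeR adjusted p = 0.0665). It passed under library size alone (0.66, edgeR adjusted p = 0.00335). The 2 genes exchanged order: the ratio of Sntb2 to Sntb1 per exon length was 0.943, 0.80 and 0.803 in ∆Ex51 libraries 4, 5 and 6, against 1.44, 1.69 and 1.59 in WT libraries 1, 2 and 3. The ratio was under 1 in every ∆Ex51 library and above 1 in every WT library, with a difference of the mean log2 ratio of -0.89 (exact permutation test, two-sided, p = 0.1, the smallest possible).

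Sntg2, the gamma-2-syntrophin gene (chromosome 12, 30174482 to 30373375, reverse strand), was barely detected. It had 2, 3 and 4 counts in ∆Ex51 libraries 4, 5 and 6 and 4, 2 and 4 counts in WT libraries 1, 2 and 3. With 9 counts against 10 in all, the ratio per library total, ∆Ex51 over WT, was 0.883 with an exact 95% counting interval of 0.317 to 2.42, so a difference was not detectable at this depth.

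Nos1 encodes neuronal nitric oxide synthase, which in muscle makes the nitric oxide that raises blood flow during contraction. It lies on the forward strand of chromosome 5 at 117781032 to 117958840. Its level was 141, 101 and 118 CPM in ∆Ex51 libraries 4, 5 and 6, against 233, 206 and 172 CPM in WT libraries 1, 2 and 3. The groups did not overlap, and the spread within each was wide. The means were 120 ± 20.4 CPM in ∆Ex51 muscle and 204 ± 30.8 CPM in WT muscle (SD, n = 3 each), 58.8% of the WT mean. Nos1 had a log2 fold change of -0.77 (standard error 0.155, 95% interval -1.13 to -0.41, edgeR adjusted p = 0.00959), and it was between -0.90 and -0.64, with the call kept, when any single library was left out. Under library size alone it was -0.42 and not called (edgeR adjusted p = 0.0656). Per plain library total ∆Ex51 library 4, at 164 CPM, lay above WT library 3, at 153 CPM.

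The 7 fibre markers were set beside Nos1. They summed to 70527 to 97597 CPM in ∆Ex51 libraries and to 110661 to 113070 CPM in WT libraries, with 0 members called higher and 1 lower (0 under library size alone), where 11.9% of all genes were called lower. Relative to their counts, Nos1 had 1.92, 1.43 and 1.21 counts per 1000 marker counts in ∆Ex51 libraries 4, 5 and 6, against 2.11, 1.86 and 1.52 in WT libraries 1, 2 and 3, and the groups overlapped. On the same measure Dmd had 0.524 to 0.658 counts in ∆Ex51 libraries and 2.13 to 2.35 in WT libraries, with no overlap. Dmd fell more than Nos1: the ratio of Nos1 to Dmd per exon length was 6.32, 4.63 and 4.91 in ∆Ex51 libraries 4, 5 and 6 and 2.12, 1.77 and 1.38 in WT libraries 1, 2 and 3 (a 3.03-fold difference, exact permutation test, two-sided, p = 0.1, the smallest possible). An antisense gene, Gm26995, shares 268 exon bases with Nos1, 2.40% of its exon length. No source used here gives the strand setting of the counting, so reads from that stretch are uncertain.

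Levels of different genes were compared per exon length, as RPKM from the counts with TMM scaling. In ∆Ex51 muscle the order was Nos1 (10.7 ± 1.83 RPKM), Dtna (10.6 ± 1.77), Utrn (4.43 ± 0.410), Sntb1 (4.18 ± 0.756), Sntb2 (3.51 ± 0.344), Dmd (2.03 ± 0.103), Drp2 (1.44 ± 0.179), Dtnb (0.219 ± 0.0588) and Sntg2 (0.0415 ± 0.0181). In WT muscle it was Nos1 (18.3 ± 2.76 RPKM), Dmd (10.5 ± 0.642), Dtna (8.90 ± 0.994), Utrn (5.53 ± 0.138), Sntb2 (2.83 ± 0.255), Sntb1 (1.81 ± 0.190), Drp2 (1.23 ± 0.0626), Dtnb (0.165 ± 0.0256) and Sntg2 (0.0604 ± 0.0262). Dmd was second in WT muscle and sixth in ∆Ex51 muscle. In WT muscle no neighbours in the order overlapped in range. In ∆Ex51 muscle Nos1 and Dtna overlapped, as did Utrn with Sntb1 and Sntb1 with Sntb2. The exon length covers all annotated exons of a gene, 23801 bases for Dmd against 14910 in Dmd-203, so it lowers genes with many minor exons. Per length of the longest protein-coding transcript, Dtna came first in both groups, at 28.6 ± 4.76 in ∆Ex51 muscle and 23.9 ± 2.67 in WT muscle, with its WT range overlapping that of Nos1, and Dmd stood at 3.25 ± 0.165 and 16.8 ± 1.02.

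**Figure D4:**
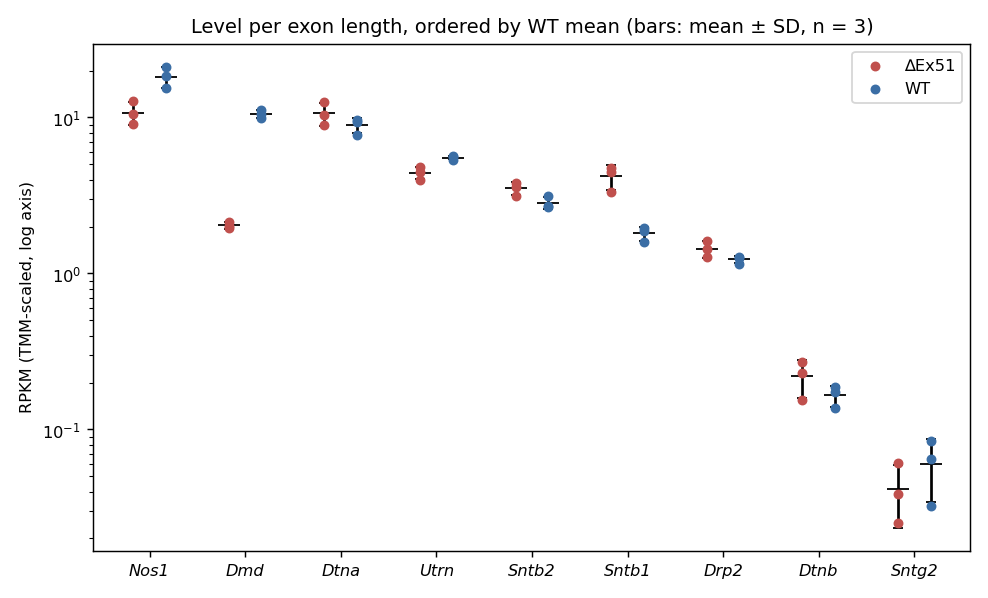
Level per exon length (RPKM, TMM-scaled, logarithmic axis) of the 9 genes, ordered by the WT mean. Points are libraries and bars the mean ± SD of 3, with ∆Ex51 left of WT for each gene. Dmd drops to 2.03 RPKM in ∆Ex51 muscle, below Utrn, Sntb1 and Sntb2, against 10.5 RPKM in WT muscle.

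The authors' deposited table holds the same comparison for 8 of the 9 genes, without Sntg2. In the authors' deposited table Dmd (-2.40), Utrn (-0.35) and Nos1 (-0.80) are lower and Sntb1 (1.18) is higher at an adjusted p under 0.05, where 37.9% of its genes are called, 19.1% higher and 18.8% lower. Sntb2 (0.28), Dtna (0.22), Dtnb (0.37) and Drp2 (0.20) are not called in the authors' deposited table.

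Partner genes were counted against the whole table, where 16.1% of the genes tested were called higher and 11.9% lower, or 37.6% and 2.33% under library size alone. Of 9 listed genes of dystroglycan, the sarcoglycans, sarcospan and the laminin alpha-2 chain, 8 were tested, and 0 were called higher and 1 lower, with a median log2 fold change of -0.07 against -0.01 over all genes. With library size alone 5 of the 8 were called higher and 0 lower (median 0.28). The gene called was Sgca, alpha-sarcoglycan, at 92.0 ± 11.04 CPM in ∆Ex51 muscle and 122 ± 12.9 CPM in WT muscle (-0.41, edgeR adjusted p = 0.0363). Its call ended under library size alone (-0.07) and without WT library 1 (-0.35) or 2 (-0.40) or ∆Ex51 library 4 (-0.38) or 5 (-0.33). Sgce, epsilon-sarcoglycan, stood at 0.37 and was not called.

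Cytoplasmic partners of dystrophin and dystrobrevin moved in both directions. Of 14 listed genes, 11 were tested, and 2 were called higher and 3 lower (median -0.09), against 16.1% and 11.9% of all genes. Under library size alone 4 were called higher and 1 lower (median 0.25). Sntg1 and Dytn had 0 counts in all libraries. Plec encodes plectin, which ties intermediate filaments to the complex, and was at 650 ± 38.0 CPM in ∆Ex51 muscle and 1215 ± 151 CPM in WT muscle (-0.90, edgeR adjusted p = 0.00236). Synm encodes synemin, an intermediate filament protein that binds dystrobrevin and dystrophin, and was at 782 ± 169 CPM in ∆Ex51 muscle and 1222 ± 91.3 CPM in WT muscle (-0.64, edgeR adjusted p = 0.0215). Its call ended under library size alone (-0.31) and without any one library except ∆Ex51 library 6. Krt8, keratin 8, had 17, 21 and 32 counts in ∆Ex51 libraries and 0, 1 and 0 in WT libraries (5.38, edgeR adjusted p = 0.00296). Summed over libraries, the counts gave a ratio of 53.7 per TMM-scaled total, with an exact 95% counting interval of 9.34 to 2153. That interval leaves out the spread between libraries.

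Genes whose proteins bind the PDZ domain of syntrophins were called in both directions. Of 12 listed, 10 were tested, and 2 were called higher and 4 lower (median -0.30), against 16.1% and 11.9% of all genes. With library size as the scaling, 2 were called higher and 3 lower (median 0.052). Kcnj2, an inward-rectifier potassium channel, was at 34.7 ± 5.76 CPM in ∆Ex51 muscle and 84.1 ± 12.3 CPM in WT muscle (-1.28, edgeR adjusted p = 0.00136). Aqp4, the water channel that syntrophin holds at the sarcolemma, was at 61.9 ± 9.68 CPM in ∆Ex51 muscle and 105.7 ± 8.03 CPM in WT muscle (-0.77, edgeR adjusted p = 0.00434). Abca1, a transporter that exports cholesterol from cells, was at 114 ± 24.2 CPM in ∆Ex51 muscle and 55.3 ± 16.9 CPM in WT muscle (1.05, edgeR adjusted p = 0.0154), and was chosen after its values were seen. Its call ended without WT library 2 (1.08, edgeR adjusted p = 0.0531) or ∆Ex51 library 5 (0.90, 0.0531).

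In the nitric oxide and cyclic GMP pathway, 12 of 15 listed genes were tested, and 2 were called higher and 2 lower (median -0.46), against 16.1% and 11.9% of all genes. By library size alone 4 were called higher and 1 lower (median -0.11). Both genes called lower encode subunits of the soluble guanylyl cyclase that senses nitric oxide. Gucy1a1 was at 16.2 ± 1.72 CPM in ∆Ex51 muscle and 28.7 ± 2.05 CPM in WT muscle (-0.83, edgeR adjusted p = 0.00227). Gucy1b1 was at 10.9 ± 0.958 CPM in ∆Ex51 muscle and 17.9 ± 2.72 CPM in WT muscle (-0.71, edgeR adjusted p = 0.00877), and its call ended under library size alone (-0.36). Dynll1, a dynein light chain that also binds neuronal nitric oxide synthase, was at 34.5 ± 5.45 CPM in ∆Ex51 muscle and 16.6 ± 2.37 CPM in WT muscle (1.06, edgeR adjusted p = 0.00274). Of the other synthases, Nos2 stood at -0.49 and Nos3, the endothelial form, at -0.75. Neither was called, and both were chosen after their values were seen. The sign of Nos2 turned without WT library 1 (0.092). Nos3 passed the threshold without ∆Ex51 library 4 (-1.15), with no filter (-0.73) and with a replicate block (-0.80).

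**Figure D5:**
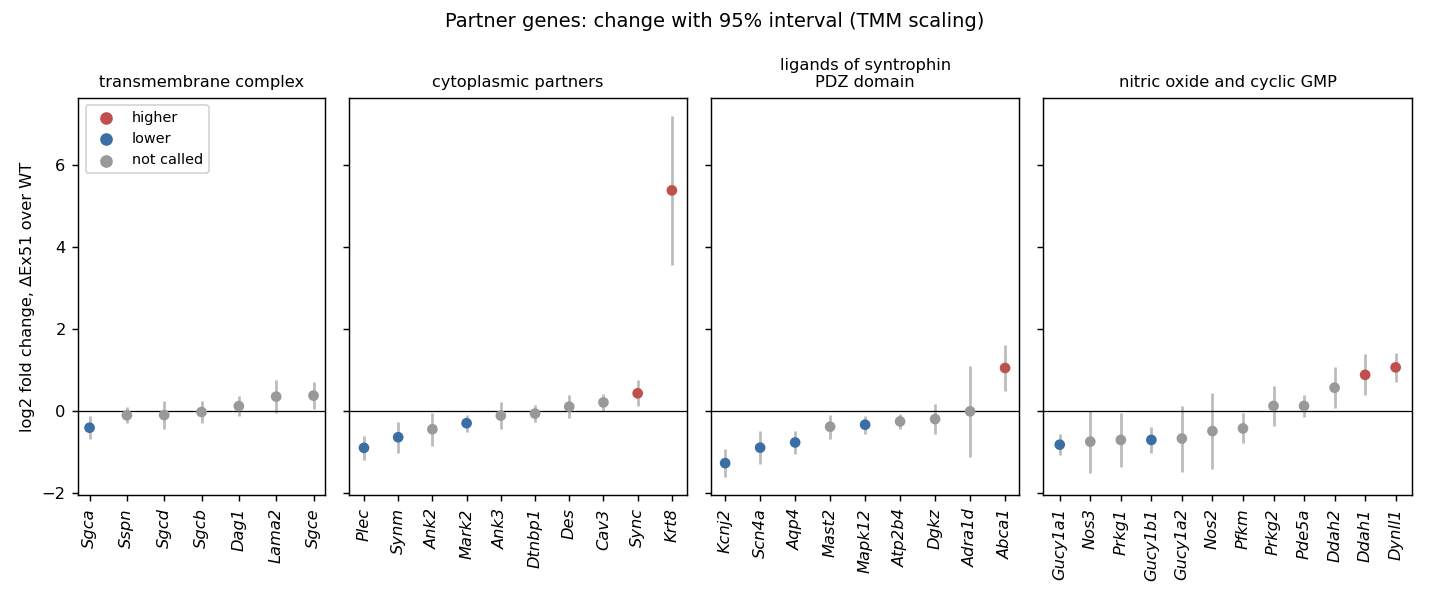
Log2 fold change, ∆Ex51 over WT, of tested genes reported from 4 partner lists under TMM scaling, with 95% intervals. Red points were called higher, blue points lower and grey points not called. Kcnj2 at -1.28 and Plec at -0.90 lie at the low end, and Krt8 stands far above the rest.

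Over the 6 libraries, the genes of at least 5 mean CPM whose log2 level ran closest to Dmd were Golga4 (r = 0.997), mt-Nd4 (r = 0.995) and mt-Nd2 (r = 0.994). Closest to Nos1 were Abhd14a (r = 0.998), Tbc1d22b (r = 0.997) and AI597479 (r = 0.994). These were picked as the highest of 9425 genes compared, after genes with predicted or pseudogene names (Gm, Rik, -ps) were left out. The libraries fall into 2 clusters by genotype for Dmd, so its correlations rest mostly on the difference between the groups. The spread of Nos1 within the groups enters its own.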

How the data were processed

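Raw read counts, 1 value a gene and library, were deposited by the authors beside each gene's exon length, and these counts were the input of every fit. The deposited RPKM values, a unit scaled by gene length and library total, cover a filtered set of genes and were used in alternatives. The authors' deposited table holds log2 fold changes, a likelihood-ratio score, p-values and their −log10, as the file headers name them. The submitters' processing notes list the build GRCm38 (mm10) and, as tools, edgeR 3.30.1, featureCounts 1.6.0 and FastQC 0.11.4. No source used here names the aligner, the strand setting or the annotation release. Column sums were 15681945 to 21020353 counts.

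The main test was the two-sided quasi-likelihood F-test of edgeR 4.0.16 (R 4.3.3) with TMM scaling, edgeR's default filter on low counts by group, and adjustment by Benjamini-Hochberg over the 14335 genes that passed it. Calls needed an adjusted p under 0.05. Standard errors were the absolute log2 fold change divided by the square root of F, and 95% intervals use them. The fit was run on simulated counts with few changed genes, higher or lower at even odds. That run cannot decide between the scalings, and no result rests on it. Ratios within libraries were compared by exact permutation of the libraries. Annotation and Dmd sequences are from GENCODE M21 on GRCm38. Likeness used Pearson's r on log2(CPM + 0.5).

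The members and lists were chosen with earlier results of these data known. Named genes were the 9 members, up to 3 per partner list by smallest adjusted p, of which 2 share the sign of the list's median and 1 has the opposite sign, and the 3 most like Dmd and Nos1. Some genes of the lists are counted but not reported here. Nothing in the labels says whether libraries of a group came from separate litters or days. The p-values of edgeR set the group difference against variation among these libraries, estimated with the help of all genes tested. They cover only these libraries. Counts of libraries within a group differed by 8.08 to 42.9 chi-square per degree of freedom, so none repeats another. Alternatives were other scalings, filters and tests (DESeq2 1.42.0, limma 3.58.1), a replicate block, and each library left out. Library size alone for the lists, transcript length and fibre-marker ratios were added after seeing the data.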

Additional observations from a re-analysis of the deposited data

How the results depend on the processing

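Dmd and Sntb1 kept direction and call under all 18 alternatives run. Scaling changed how many genes were called in each direction. Library size alone called 5394 genes higher and 334 lower. Limma on the log2 of deposited RPKM called 5222 higher and 309 lower (pseudocount 0.1), and 5071 and 308 (pseudocount 1). In those 3 settings, in that order, Utrn stood at 0.028, 0.025 and 0.022, and Nos1 at -0.42, -0.42 and -0.39 without a call. Drp2 (0.59, 0.53, 0.33), Dtna (0.60, 0.59, 0.54) and Sntb2 (0.66, 0.64, 0.50) were called. Under library size alone the list medians were 0.28 for the transmembrane complex, 0.25 for cytoplasmic partners, 0.052 for PDZ ligands and -0.11 for nitric oxide and cyclic GMP. Utrn lost its call with no filter (-0.30). The cause was not tested.

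With 1 library left out, 1346 (without WT 2) to 2662 (without ∆Ex51 6) genes were called higher and 663 (without WT 2) to 2157 (without ∆Ex51 6) lower, with 986 lower without ∆Ex51 4 and 759 without ∆Ex51 5. Utrn ranged from -0.38 to -0.25, and the log2 difference of the Dtnb to Dtna ratio from -0.057 to 0.35, at -0.045 without ∆Ex51 4. Nos2, not called, ranged from -0.77 to 0.092.

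The labels number the replicates 1 to 3 in each genotype. Same-numbered libraries had deviations from their group means correlated at 0.352, -0.0100 and 0.0562, and differently numbered ones at -0.216 to 0.152. So few values cannot decide whether the libraries are paired, and the main test assumed no pairing. With the number as a replicate block, 2508 genes were called higher and 1960 lower, and Sntb2 (0.31) passed the threshold (edgeR adjusted p = 0.0371). Counts near 0 limit Sntg2 and Krt8, and 3 libraries a group limit small changes such as those of Utrn and Drp2.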
